A study of Mus musculus with 8 samples.

Results

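The V and J segments of the T cell receptor (TCR) beta chain were counted in T cells from mouse bone marrow. The members were every TRBV and TRBJ name given to a TRB contig, taking in each cell the TRB contig with the most unique molecular identifiers (UMIs). There were 34 of them, 22 TRBV and 12 TRBJ, out of 166 V and J names of both TCR chains, and all 34 were seen in each of the 4 pools.

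Single cells were profiled with 10x Genomics 5′ chemistry, which gives gene expression and, in a companion library, the TCR contigs of the same cells. The Runx1::Runx1t1 group was heterozygous for a conditional Runx1::Runx1t1 fusion allele and carried Mx1-Cre (Runx1Runx1t1/+; Mx1-Cre). The control group had the allele without Mx1-Cre according to the study's methods, although its label reads WT. All mice were C57BL/6, received 4 injections of Poly(I:C), and were killed 4 weeks later; age was not given in the sources used here. Mx1-Cre is switched on by interferon and acts in hematopoietic and some other cells. Live CD3+ cells without mCherry, the reporter of fusion-expressing cells, were sorted, so the T cells analysed were not those that expressed the fusion. Each group had 2 pools of 2 mice, so the p-values below rest on 4 pools. Those of edgeR use a spread estimated partly from all segments of the fit, not that of the single segment alone. The exact permutation tests use only the values of the pools.

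The TRB locus is assembled in developing thymocytes by V(D)J recombination. A D segment joins to a J segment, and a V segment then joins to DJ. Bases are trimmed and added at the joints, which together form the third complementarity-determining region (CDR3), the part of the beta chain that contacts the antigen peptide most. CDR1 and CDR2 are encoded in the V segment and mostly touch the MHC molecule, which is class I for Cd8+ T cells and class II for Cd4+ T cells. Because every joint differs, a nucleotide-identical rearrangement in several cells of a pool marks cells of 1 clone in most cases.

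After quality control 52811 cells were kept, of which 40151 (76.0%) had a TRB contig, and 2787 of these (6.94%) had a pair of TRB contigs. The contig libraries held 151902 to 188045 TRB UMIs. Cells were classed by co-receptor UMIs: 27115 Cd8+ T cells (Cd8a or Cd8b1, no Cd4), 7370 Cd4+ T cells (Cd4, no Cd8a or Cd8b1) and 16608 co-receptor-negative cells with no UMI of any of them, while 1718 cells with both were left out. The markers fitted the first 2 classes: among cells with TRB, Cd3e was found in at least 97.1% of each class and pool, the helper gene Cd40lg in 32.8% to 41.5% of Cd4+ but 1.13% to 2.08% of Cd8+ T cells, and the cytotoxic gene Nkg7 in 91.9% to 96.9% of Cd8+ but 43.0% to 63.4% of Cd4+ T cells. Co-receptor-negative cells were no single cell type. Their median UMI count was 4429 to 5781.5, against 6763.5 to 7549 in Cd8+ and 4539 to 5472 in Cd4+ T cells. Cd40lg was found in 14.8% to 21.3% of co-receptor-negative cells, Nkg7 in 63.3% to 87.7% and the NK receptor gene Klrb1c in 21.2% to 54.6%. A TRB contig was present in 53.7% of them. Of the B cell genes, Ms4a1 was found in at most 0.129% of the cells with TRB of any of the 3 classes and any pool, Cd79a in at most 0.657% and Cd79b in 2.65% to 7.12%. The myeloid genes Lyz2 and S100a8 moved with the group: over these classes Lyz2 was found in 1.13% to 1.98% of cells in the Runx1::Runx1t1 pools and 6.76% to 9.48% in the control pools, and S100a8 in 0.282% to 0.518% and 2.17% to 8.91%. Their part in the group comparisons below was not tested. Across libraries, 1406 of 51386 cell barcodes occurred more than once, and in the 810 that had a TRB contig in both libraries no CDR3 sequence was the same.

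Usage was measured by cells and by distinct rearrangements, meaning unique combinations of V, J and CDR3 nucleotide sequence within a pool and class. The second measure counts a clone once, whatever its size. Cd8+ T cells gave 3488 to 5519 distinct rearrangements per pool, Cd4+ T cells 844 to 1536 and co-receptor-negative cells 939 to 2890. A rearrangement was seen in only 1 cell in 88.2% to 98.1% of cases. Since shares of a pool sum to a fixed total, one segment cannot be higher without others being lower.

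The germline sequences behind the names are shown first, because 2 of the names differed from that of the gene they matched. Shown are segments that differed between classes, among them those 2 names. Segments that did not differ between classes vary in CDR1 and CDR2 as well, and no link of these sequences to class was tested. Each line gives the stretch from the start of CDR1 to the end of CDR2 that the contigs carried, read 5′ to 3′, with CDR1 and CDR2 in capitals and the framework between them in lower case.
TRBV12-1: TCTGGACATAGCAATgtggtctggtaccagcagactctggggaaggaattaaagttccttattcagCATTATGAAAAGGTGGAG
TRBV12-2: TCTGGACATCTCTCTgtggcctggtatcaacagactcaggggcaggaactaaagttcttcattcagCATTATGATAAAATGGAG
TRBV14: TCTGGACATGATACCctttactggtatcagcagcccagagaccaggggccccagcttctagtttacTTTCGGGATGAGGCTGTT
TRBV29: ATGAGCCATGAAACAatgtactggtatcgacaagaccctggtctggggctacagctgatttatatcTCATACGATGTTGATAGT
TRBV17: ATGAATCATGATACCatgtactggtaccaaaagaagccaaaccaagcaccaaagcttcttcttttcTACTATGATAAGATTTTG
TRBV12-2+TRBV13-2: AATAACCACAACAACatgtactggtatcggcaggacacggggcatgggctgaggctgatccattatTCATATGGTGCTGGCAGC
TRBV31: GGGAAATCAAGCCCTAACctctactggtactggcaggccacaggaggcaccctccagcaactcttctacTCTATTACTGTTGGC
TRBV10: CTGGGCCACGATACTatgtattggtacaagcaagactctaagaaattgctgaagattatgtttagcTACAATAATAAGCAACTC

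Each of the 22 stretches occurred once in the GRCm38 genome, on chromosome 6, within a Trbv gene. That of TRBV12-1 lay at chr6:41113861-41113944, of TRBV12-2 at chr6:41119158-41119241, of TRBV14 at chr6:41135406-41135489, of TRBV17 at chr6:41163348-41163431 and of TRBV29 at chr6:41271673-41271756, all on the plus strand. TRBV31 was the only one on the minus strand, at chr6:41557815-41557898, downstream of the D, J and C segments. It joins by inversion. The V array thus ran from Trbv1 (chr6:40891229-40891885) to Trbv31 (chr6:41557691-41558452).

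The name TRBV12-2+TRBV13-2 stood for Trbv13-2. Its stretch was identical to that of TRBV13-2, at chr6:41121625-41121708 on the plus strand. In the gene expression library, Trbv13-2 was the Trbv gene with the most UMIs in 2666 of the 2669 cells compared. Likewise the stretch named TRBV10 lay in Trbv4, at chr6:41059678-41059761, and Trbv4 led in 1178 of 1181 such cells. Over all names, the Trbv gene at the contig's position was the leading one in 99.9% of 29012 cells, and the lowest value was 98.6% (TRBV5). TRBV12-2+TRBV13-2 and TRBV13-2 were kept as separate members here, as the contig tables name them, and 63 CDR3 sequences carried both names.

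The 3 genes of the TRBV13 family differed little in this stretch. Compared with TRBV13-2, TRBV13-1 had 5 different bases and TRBV13-3 had 8, which are in capitals on the lines below.
TRBV13-1: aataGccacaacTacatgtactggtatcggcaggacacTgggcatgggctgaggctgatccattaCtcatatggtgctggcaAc
TRBV13-3: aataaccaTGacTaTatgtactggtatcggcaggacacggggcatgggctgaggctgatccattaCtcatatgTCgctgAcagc

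The segments were used unequally. TRBV12-2+TRBV13-2 led with 3305 distinct rearrangements summed over pools and classes (10.4%), followed by TRBV3 with 2168, TRBV13-1 with 2138, TRBV13-3 with 2112, TRBV12-1 with 2052 and TRBV19 with 2041. TRBV30 was the least used, with 103 (0.325%). Among the J segments TRBJ2-7 led with 6640 (20.97%), before TRBJ2-1 with 4004 (12.6%) and TRBJ2-5 with 3750 (11.8%), and TRBJ1-5 was the least used with 863 (2.73%). Trbj1-7 and Trbj2-6 are in the annotation, and no contig carried them. The effective number of TRBV segments, the exponential of the Shannon entropy of their shares, was 18.4 to 19.0 in Cd8+ T cells, 17.5 to 18.2 in Cd4+ T cells and 17.3 to 17.5 in co-receptor-negative cells when distinct rearrangements were counted.

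**Figure D1:**
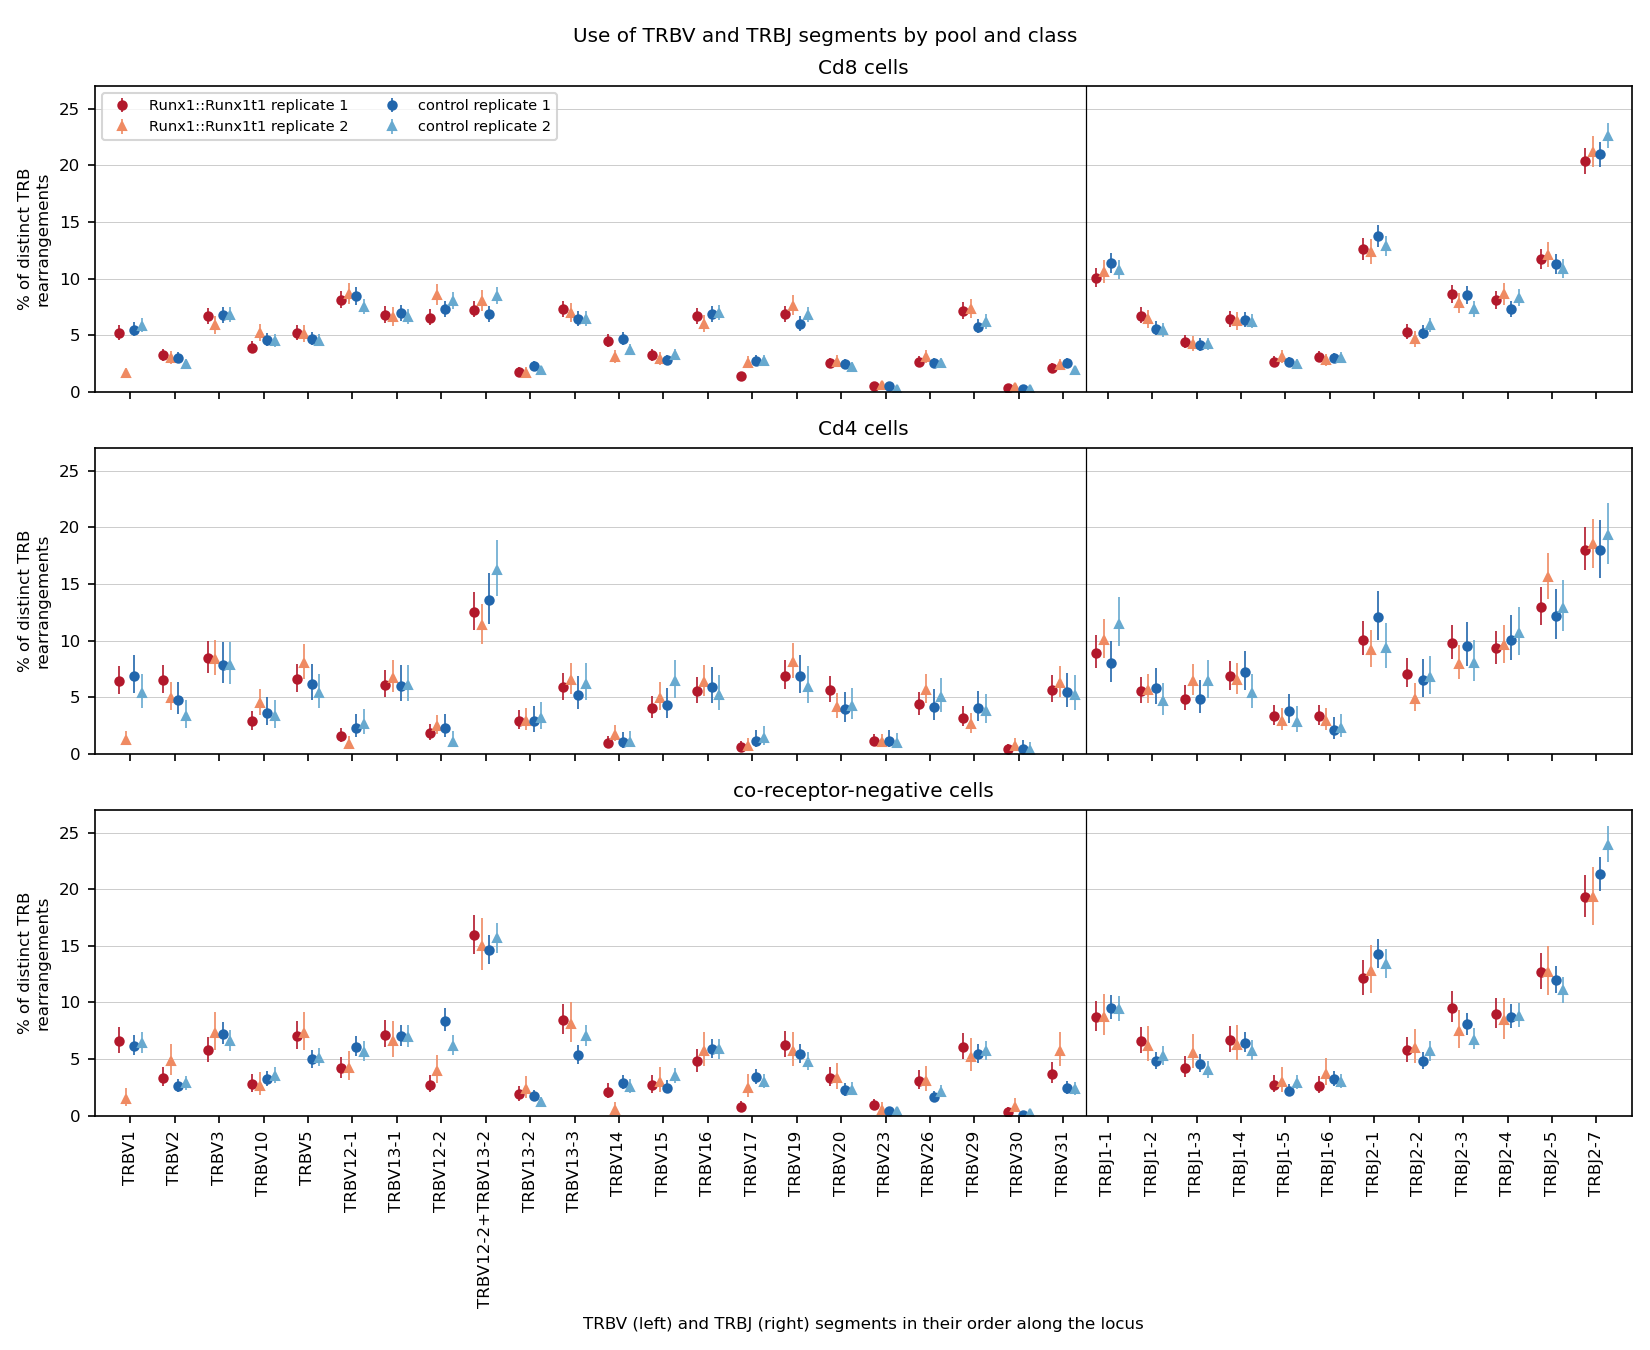
Share of distinct TRB rearrangements (percent, vertical axis) with each of 22 TRBV and 12 TRBJ segments in locus order, in Cd8+, Cd4+ and co-receptor-negative cells of the 4 pools. Points are pools, bars their 95% Wilson intervals (counting error only). TRBV12-1 and TRBV12-2 stand at 6.56% to 8.66% in Cd8+ T cells and at 0.892% to 2.61% in Cd4+ T cells, and TRBV1 of Runx1::Runx1t1 replicate 2 lies below the other pools in all 3 panels.

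To explore whether segment usage differed between Cd8+ and Cd4+ T cells of the same mice, the classes were compared within pools. The TRBV12 family was the group that differed most: TRBV12-1 and TRBV12-2 together held 15.8% ± 1.04 (SD, n = 4 pools) of the rearrangements in Cd8+ T cells and 3.33% to 4.63% in Cd4+ T cells. TRBV14, TRBV17 and TRBV29 were also higher in Cd8+ T cells, whereas TRBV12-2+TRBV13-2, TRBV13-2 and TRBV31 were among those lower. With edgeR's quasi-likelihood test, 21 of 34 members passed an adjusted p of 0.05 (16 of 22 TRBV and 5 of 12 TRBJ), 8 higher and 13 lower in Cd8+ T cells. Over all 163 segments of both chains tested, 41.1% passed, 16.6% higher and 24.5% lower. The split depended on scaling: with TMM factors per chain, 12 members were higher and 12 lower. The median difference, Cd8 over Cd4 on the log2 scale, was -0.12 over the members and -0.07 over all segments, and the median size regardless of sign was 0.346 and 0.449.

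Values per pool are given in the order Runx1::Runx1t1 replicates 1 and 2, then control replicates 1 and 2. TRBV12-1 held 8.11%, 8.66%, 8.43% and 7.50% of Cd8+ rearrangements. In Cd4+ T cells it held 1.56%, 0.892%, 2.32% and 2.61%. The classes did not overlap, and the log2 ratio was 2.22 ± 0.14 (SE; adjusted p = 1.47e-35). The neighboring gene TRBV12-2 held 6.56%, 8.51%, 7.29% and 8.04% in Cd8+ and 1.82%, 2.43%, 2.32% and 1.07% in Cd4+ T cells. Its classes were separate too, with a log2 ratio of 1.92 ± 0.15 (adjusted p = 2.29e-27). TRBV14 held 4.51%, 3.10%, 4.66% and 3.70% in Cd8+ T cells against 0.977%, 1.70%, 1.04% and 1.07% in Cd4+ T cells. Every Cd8+ value lay above every Cd4+ value (log2 ratio 1.70 ± 0.20, adjusted p = 1.06e-13). For TRBV17 the Cd8+ values were 1.38%, 2.58%, 2.75% and 2.75% and the Cd4+ values 0.586%, 0.730%, 1.16% and 1.42%. Here the lowest Cd8+ pool, Runx1::Runx1t1 replicate 1, lay below the highest Cd4+ pool, and the log2 ratio was 1.29 ± 0.24 (adjusted p = 1.08e-06).

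TRBV29, one of the beta segments that pair with the invariant alpha chain of NKT cells, held 7.15%, 7.31%, 5.77% and 6.18% of Cd8+ and 3.19%, 2.60%, 4.06% and 3.79% of Cd4+ rearrangements. The classes were apart, with a log2 ratio of 1.0 ± 0.12 (adjusted p = 8.51e-13). Without cells whose alpha chain joined TRAV11 to TRAJ18, the invariant NKT pair, the log2 ratio was 2.00, and in the control pools alone it was 0.61. Such cells were 3.21% to 10.7% of Cd4+ and 0.350% to 0.816% of Cd8+ T cells with TRB.

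On the lower side, TRBV12-2+TRBV13-2 held 7.27%, 8.03%, 6.85% and 8.50% of Cd8+ and 12.5%, 11.4%, 13.6% and 16.2% of Cd4+ rearrangements. The ranges were separate and the log2 ratio was -0.79 ± 0.07 (adjusted p = 3.76e-21). Under its other name, TRBV13-2 held 1.78%, 1.69%, 2.27% and 1.92% against 2.93%, 2.92%, 2.90% and 3.20%, so both names of this gene were lower in Cd8+ T cells (log2 ratio -0.63 ± 0.18, adjusted p = 0.00179). Counted as 1 gene, the log2 ratio was -0.75 ± 0.06. Of the cells with the TRAV11-TRAJ18 alpha chain, 45.5% used TRBV12-2+TRBV13-2 and 3.04% TRBV13-2, so the values above include them. TRBV12-2+TRBV13-2 kept its direction and call in all 15 alternatives, among them that without these cells. The inverted segment TRBV31 held 2.14%, 2.38%, 2.53% and 1.90% of Cd8+ but 5.66%, 6.24%, 5.45% and 5.21% of Cd4+ rearrangements. These were separate ranges (log2 ratio -1.30 ± 0.15, adjusted p = 5.37e-15). TRBV20 (log2 ratio -0.87), TRBV26 (-0.80), TRBV2 (-0.76), TRBV15 (-0.66), TRBV23 (-1.08), TRBV5 (-0.40) and TRBV3 (-0.33) were also lower. TRBV10, named for Trbv4, was higher by 0.35 ± 0.14 with an adjusted p of 0.0301.

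Of the most used segments and those linked to invariant T cells, some did not pass the test. The log2 ratio of TRBV13-3, which MAIT cells use, was 0.21 ± 0.10 (adjusted p = 0.0812), that of TRBV13-1 was 0.11 ± 0.10, of TRBV1 -0.12 ± 0.12 and of TRBV19 -0.02 ± 0.10. The rare TRBV30 stood at -0.50 ± 0.38. At 0.236% to 0.430% of Cd8+ rearrangements its depth allowed only a wide error.

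J segments differed less than V segments in size. TRBJ2-1 held 12.6%, 12.4%, 13.7% and 12.9% in Cd8+ and 10.1%, 9.16%, 12.1% and 9.36% in Cd4+ T cells. The ranges did not overlap (log2 ratio 0.34 ± 0.07, adjusted p = 1.53e-05). TRBJ2-7 held 20.4%, 21.2%, 21% and 22.6% against 18%, 18.5%, 18% and 19.3%, again without overlap (log2 ratio 0.20 ± 0.05, adjusted p = 0.00155). TRBJ2-4 (log2 ratio -0.29), TRBJ2-5 (-0.22) and TRBJ1-3 (-0.39) were lower in Cd8+ T cells. Since members of the TRBJ2 cluster went both ways, its share as a whole was 67.06% in Cd8+ and 67.03% in Cd4+ T cells. The difference was 0.0360 percentage points (SD 1.12 over 4 pools, higher in 2 of 4, exact permutation p = 1, adjusted p = 1). In co-receptor-negative cells the share was 68.5%, higher than in Cd4+ T cells in 4 of 4 pools, by 1.42 points (SD 0.780, exact permutation p = 0.13, the smallest possible, adjusted 0.375). In Cd8+ T cells it was 66.7% in the Runx1::Runx1t1 and 67.4% in the control group, a difference of -0.761 points (exact permutation p = 0.33, the smallest possible, adjusted 0.5).

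The gene expression libraries gave a second readout of largely the same cells, so not an independent one. It came from cells in which 1 Trbv gene had at least 3 UMIs and over 80% of all Trbv UMIs. Of the 16 TRBV names that differed between the classes, 15 were given an expression value. That of TRBV13-2 was the value of the gene Trbv13-2, which cells named TRBV12-2+TRBV13-2 express too. For 10 of these the expression share differed between Cd8+ and Cd4+ T cells in the same direction in all 4 pools, among them TRBV12-1, TRBV12-2, TRBV14 and TRBV17. TRBV2, TRBV20, TRBV3 and TRBV5 did so in 3 of 4 pools and TRBV10 in 1 of 4. The TRBV names that were not called, TRBV1, TRBV13-1, TRBV13-3, TRBV16, TRBV19 and TRBV30, went both ways across pools by expression. Expression counts cells, so a large clone weighs on it.

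**Figure D2:**
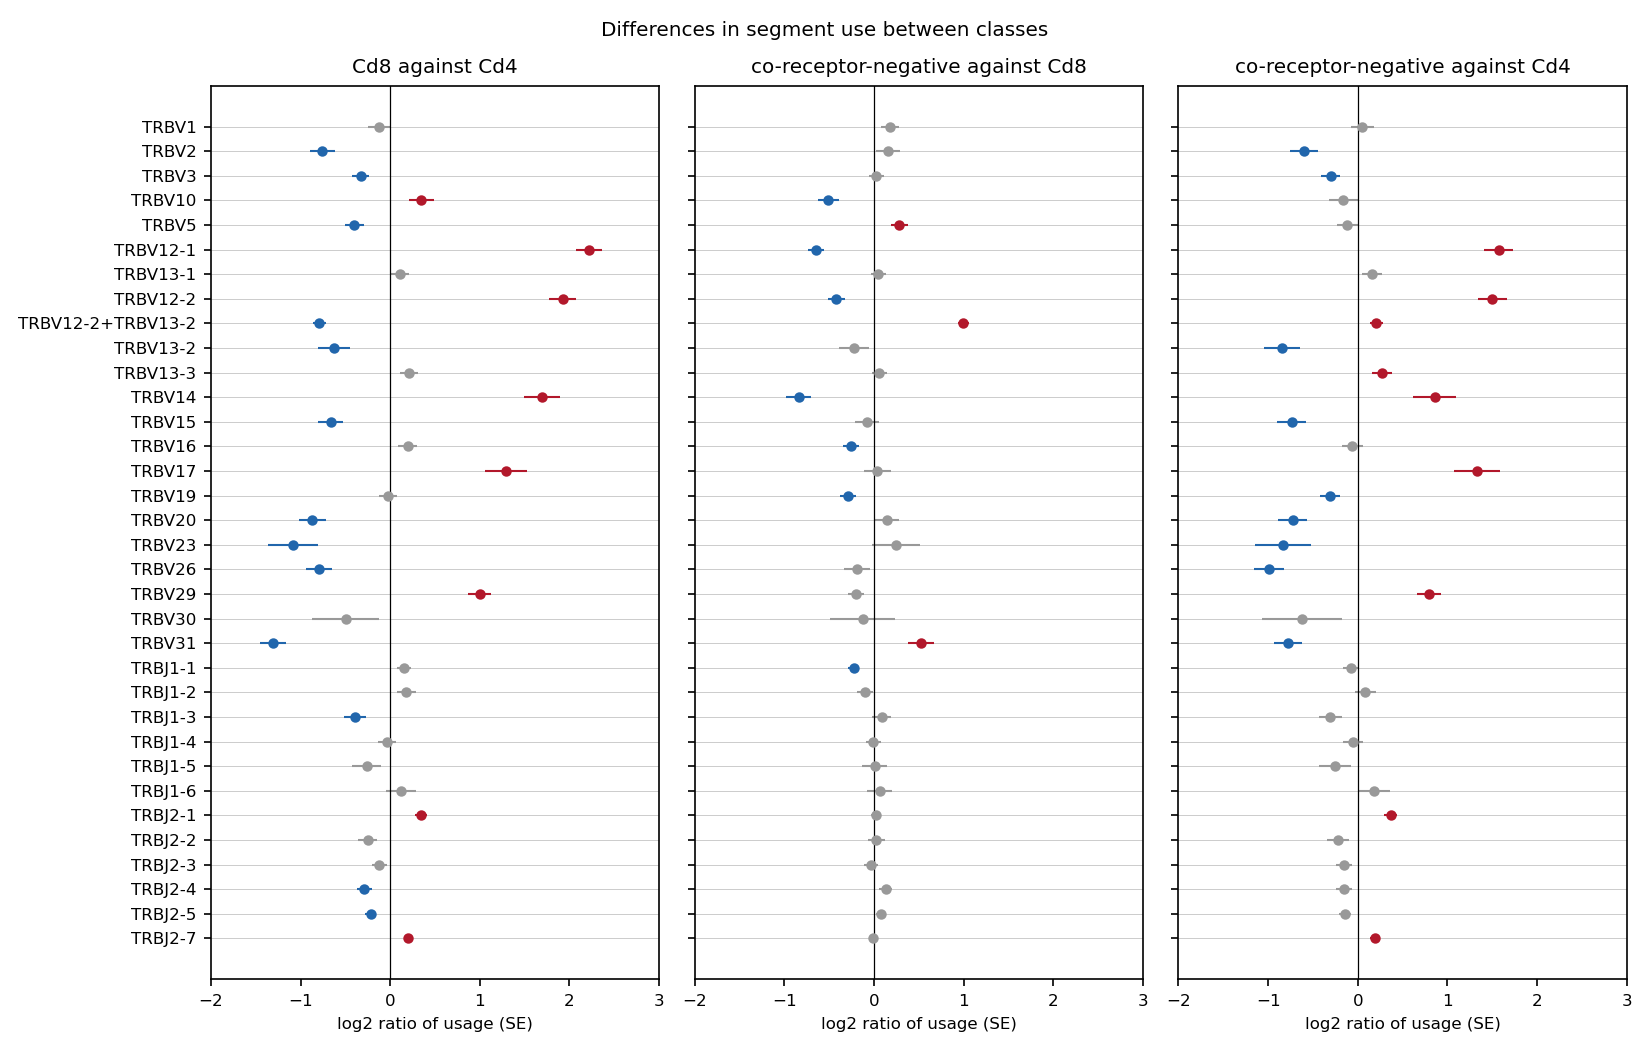
Difference in distinct rearrangements between classes (log2 ratio, horizontal axis) for the 34 segments in 3 comparisons; bars are ± 1 SE from edgeR's quasi-likelihood fit over 4 pools. Red points were higher and blue points lower at an adjusted p under 0.05, grey points did not pass. TRBV12-1 and TRBV12-2 lie far to the right against Cd4+ T cells, at 2.22 and 1.92 for Cd8+ and at 1.57 and 1.5 for co-receptor-negative cells.

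Co-receptor-negative cells were then set against each class. TRBV12-2+TRBV13-2, the segment best known for the beta chain of invariant NKT cells, was higher in them than in Cd8+ T cells, and TRBV12-1 and TRBV14 were lower. TRBV12-2 was lower too, a call that was lost in 8 of the alternatives. Against Cd8+ T cells 10 of 34 members passed (9 TRBV and 1 TRBJ), 3 higher and 7 lower, where 20.2% of all 163 segments passed, 12.9% higher and 7.36% lower. Against Cd4+ T cells 18 of 34 passed (16 TRBV and 2 TRBJ), 9 higher and 9 lower, where 33.7% of all segments passed, 17.2% higher and 16.6% lower. The 3 comparisons share their samples.

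TRBV12-2+TRBV13-2 held 16%, 15%, 14.6% and 15.7% of co-receptor-negative rearrangements. All 4 values were above the highest Cd8+ pool (8.50%), and the log2 ratio to Cd8+ T cells was 1.0 ± 0.06 (edgeR's quasi-likelihood test, adjusted p = 2.15e-37). Cells with the TRAV11-TRAJ18 alpha chain were 15.2%, 11.5%, 13.1% and 12.9% of co-receptor-negative cells with TRB. Without them the log2 ratio was 0.47 (adjusted p = 1.55e-07). Against Cd4+ T cells it was 0.21 ± 0.07 (adjusted p = 0.0198), while TRBV13-2 under its own name was -0.85 ± 0.20. Counted as 1 gene, this last difference was 0.08, with an adjusted p of 0.420.

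TRBV12-1 held 4.17%, 4.26%, 6.09% and 5.64% of co-receptor-negative rearrangements. These lay below all Cd8+ and above all Cd4+ pools (log2 ratio -0.65 ± 0.09 to Cd8+, adjusted p = 1e-09, and 1.57 ± 0.16 to Cd4+, adjusted p = 2.91e-16). TRBV12-2 held 2.74%, 3.94%, 8.41% and 6.18%, low in the Runx1::Runx1t1 pools and within or near the Cd8+ range in the control pools. Its log2 ratio to Cd8+ T cells, -0.42 ± 0.10, was -0.07 in the control pools alone. TRBV31 showed the opposite order, 3.72%, 5.75%, 2.46% and 2.35%. Its log2 ratio to Cd8+ T cells, 0.52 ± 0.14, was 0.12 in the control pools alone. It was 0.06 when Cd8+ and Cd4+ T cells needed at least 2 co-receptor UMIs and co-receptor-negative cells at least 5000 UMIs in all. That call was lost in 7 of the alternatives. TRBV14 (log2 ratio -0.84) and TRBV10 (-0.51) were also lower than in Cd8+ T cells. The calls of smaller size depended on the processing: that of TRBV5 (0.28) was lost in 9 of the alternatives, of TRBV16 (-0.26) in 8, of TRBV19 (-0.29) in 5 and of TRBJ1-1 (-0.23) in 4.

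Against Cd4+ T cells, TRBV26 (log2 ratio -0.99), TRBV31 (-0.78), TRBV15 (-0.74) and TRBV20 (-0.73) were lower. TRBV17 (1.33), TRBV29 (0.79), TRBV14 (0.86) and TRBJ2-1 (0.37) were higher. TRBV1, also used by invariant NKT cells, stood at 0.05 ± 0.13 (adjusted p = 0.827).

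To determine whether the fusion-bearing mice differed from the control mice, the groups were compared within each class, with 2 pools on each side. None of the 34 members passed in Cd8+ T cells, in Cd4+ T cells or in co-receptor-negative cells, and none in the test of the group difference in Cd8+ against that in Cd4+ T cells. Over all segments of both chains 0% passed as well. At an unadjusted p under 0.05, edgeR's quasi-likelihood test gave 4, 4, 11 and 3 members, and DESeq2, which also called none, gave 0, 0, 1 and 0. The share of all segments at this threshold is not given here, so these counts are not read as particular to the beta chain. A p that misses the threshold with 2 pools a side does not show that usage was alike.

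The smallest adjusted p of the group comparisons was in co-receptor-negative cells, for TRBV12-2. Its values, 2.74% and 3.94% against 8.41% and 6.18%, did not overlap, and the log2 ratio of the Runx1::Runx1t1 to the control group was -1.19 ± 0.22 (adjusted p = 0.0790). Of the alternatives tried, 5 gave it an adjusted p under 0.05, from 9.51e-06 to 0.0239. The log2 ratio was -0.89 without Runx1::Runx1t1 replicate 1 and -1.41 without replicate 2. TRBV31 (0.91 ± 0.22), TRBV5 (0.50 ± 0.12), TRBV12-1 (-0.48 ± 0.13) and TRBV26 (0.73 ± 0.21) came next, with adjusted p of 0.158 to 0.194, and TRBV17 stood at -1.22 ± 0.38 (adjusted p = 0.248). TRBV31 and TRBV17 passed with every cell counted (both adjusted p = 0.00396) and without cells with a pair of TRB chains (both 0.0101), and TRBV5 passed in the latter only (0.0390). TRBV17 was -0.38 without Runx1::Runx1t1 replicate 1 and -2.10 without replicate 2. The make-up of the class moved with the group: co-receptor-negative cells were 26.4% and 18.9% of the Runx1::Runx1t1 pools and 41.3% and 39.1% of the control pools. In those with TRB, Klrb1c was found in 30.8% and 21.2% against 54.6% and 53.1%, Nkg7 in 66.4% and 63.3% against 87.7% and 84.5%, and the regulatory T cell gene Foxp3 in 18.2% and 18.2% against 4.86% and 6.79%. Their part in the difference was not tested.

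In Cd8+ T cells TRBV1 held 5.22% and 1.63% in the Runx1::Runx1t1 pools against 5.49% and 5.85% in the control pools. Replicate 2 alone was far lower, and the log2 ratio, -0.66 ± 0.25 (adjusted p = 0.582), was -0.12 without it and -1.80 without replicate 1. The adjusted p was 4.96e-06 without cells with a pair of TRB chains, 0.00914 without control replicate 1, 9.57e-08 with a replicate block and 1.30e-08 with the crossed block. Runx1::Runx1t1 replicate 2 was also low in Cd4+ T cells (6.45% and 1.22% against 6.84% and 5.33%) and in co-receptor-negative cells (6.58% and 1.49% against 6.16% and 6.40%). For TRBV17, replicate 1 was the lower: 1.38% and 2.58% against 2.75% and 2.75% in Cd8+ T cells. Its log2 ratio of -0.52 ± 0.19 (adjusted p = 0.582) was -0.09 without replicate 1, and its adjusted p was 0.0375 without cells with a pair of TRB chains and 0.0224 with the crossed block. In the test of the group difference between classes, TRBV12-1 had the smallest adjusted p (0.377), with a log2 difference of 1.03 ± 0.31.

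In the same pools, some cells expressed a Trbv gene and had no TRB contig. Over all Trbv genes, including a few cells with a gene that no contig was named for, such cells were 4.96% and 12% of the expressing cells in the Runx1::Runx1t1 pools. In the control pools they were 2.57% and 2.05%. For Trbv1 in Runx1::Runx1t1 replicate 2, 295 of 1594 expressing cells had no TRB contig (18.5%), against 2.61%, 1.75% and 2.04% in the other pools. By class this was 12.4% of Cd8+ (177 of 1424), 78.9% of Cd4+ (56 of 71) and 68.9% of co-receptor-negative cells (42 of 61). By expression, Trbv1 cells were 4.01% of Cd4+ T cells in that pool, against 6.02% to 6.82% in the others, and 6.57% of co-receptor-negative cells, against 6.77% to 8.01%. The shares of TRBV1 among distinct rearrangements of these classes, 1.22% and 1.49%, lay below both. For Trbv17 in replicate 1, 113 of 308 expressing cells (36.7%) had no contig, against 9.26%, 8.75% and 2.12%. In both cases the pool also held a large clone of the segment. Such missing contigs were not always beside a low share, and classes differed. In replicate 2, 26.3% of Trbv3 cells had none. TRBV3 there held 8.35% of Cd4+ rearrangements, within the 7.82% to 8.46% of the other pools. Of Cd8+ rearrangements it held 5.88%, below their 6.67% to 6.78%. Trbv14 (23.4% without a contig) and Trbv16 (19.96%) went the same way in Cd8+ T cells of that replicate. TRBV14 held 3.10% (others 3.70% to 4.66%) and TRBV16 5.99% (others 6.67% to 6.98%). In its Cd4+ T cells both were highest, at 1.70% (others 0.977% to 1.07%) and 6.33% (others 5.21% to 5.91%). Of its Trbv15 cells 17.3% had none, while TRBV15 held 2.90% of Cd8+ rearrangements, within 2.80% to 3.26%. The part of the large clones, or of contig assembly, in the missing contigs was not tested.

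**Figure D3:**
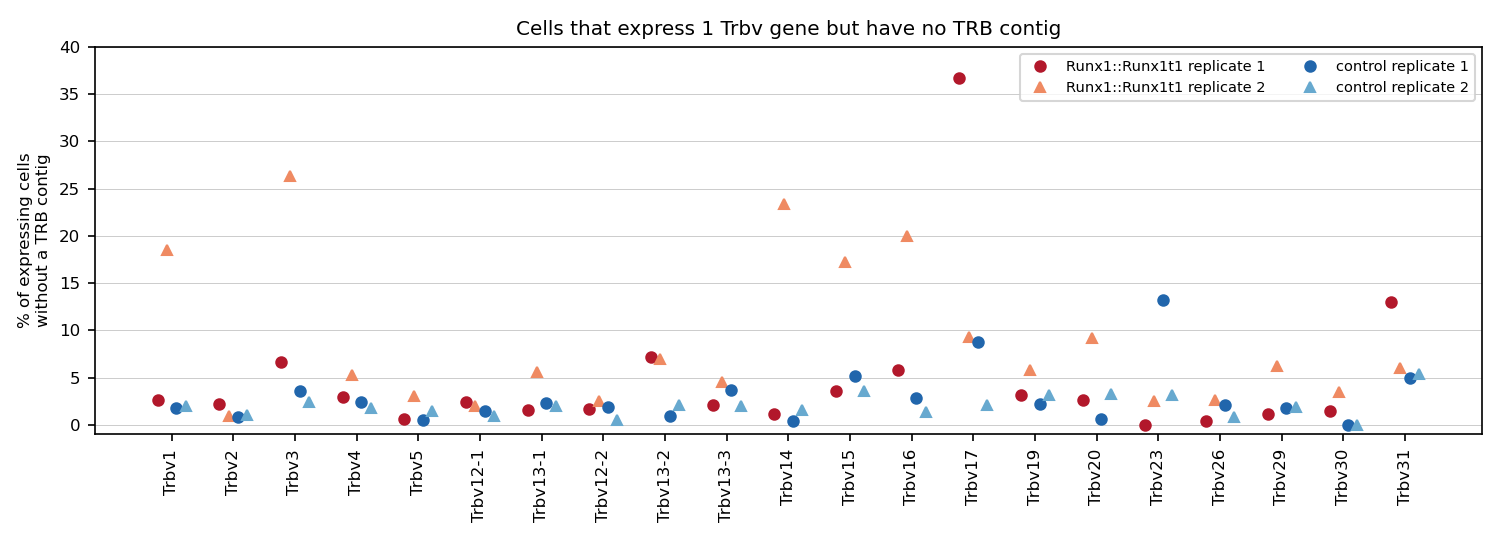
Share of cells expressing 1 Trbv gene that had no TRB contig (percent, vertical axis), for 21 Trbv genes in locus order and the 4 pools. Trbv17 in Runx1::Runx1t1 replicate 1 (36.7%) and Trbv3 (26.3%) and Trbv1 (18.5%) in replicate 2 stand above the control pools, where the shares over all Trbv genes were 2.57% and 2.05%.

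Counting cells in place of rearrangements changed the shares where a clone was large. The 4 rearrangements that held over 5% of the cells of a pool and class, all in the Runx1::Runx1t1 group, are shown with the TRBV17 rearrangement of replicate 1. Capitals mark the bases that match the germline J segment without a break up to the end of the CDR3.
TRBV1 with TRBJ2-7: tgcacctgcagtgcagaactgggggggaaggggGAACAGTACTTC
TRBV10 with TRBJ1-1: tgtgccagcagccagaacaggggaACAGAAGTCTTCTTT
TRBV10 with TRBJ2-5: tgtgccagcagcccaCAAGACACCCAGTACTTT
TRBV3 with TRBJ1-2: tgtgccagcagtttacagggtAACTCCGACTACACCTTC
TRBV17 with TRBJ2-5: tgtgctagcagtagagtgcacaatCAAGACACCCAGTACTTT

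The TRBV1 rearrangement was found in 1198 of 6002 Cd8+ T cells (19.96%) of Runx1::Runx1t1 replicate 2 and made up 88.8% of the TRBV1 cells of that class and pool. By cells TRBV1 held 22.5% there and 4.53% to 5.75% in the other pools, and TRBJ2-7 held 36.5% against 18.7% to 22.8%. The effective number of TRBV segments by cells was accordingly 16 in that pool, against 18.4 to 19.4. In Cd4+ T cells, the rearrangement of TRBV10 with TRBJ1-1 held 123 of 2318 cells (5.31%) of replicate 1. The other TRBV10 rearrangement, with TRBJ2-5, and that of TRBV3 with TRBJ1-2 each held 106 of 1960 cells (5.41%) of replicate 2. By cells, TRBV3 held 16.9% of Cd4+ T cells in replicate 2, against 7.22% to 8.67%. The TRBV10-TRBJ2-5 rearrangement was also found in 30 co-receptor-negative cells of replicate 2 (2.82%). That of TRBV17 held 123 of 6054 Cd8+ T cells of replicate 1 (2.03%) and 64.4% of its TRBV17 cells. In the control pools the largest rearrangement of a class held 0.417% to 2.89% of the cells.

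**Figure D4:**
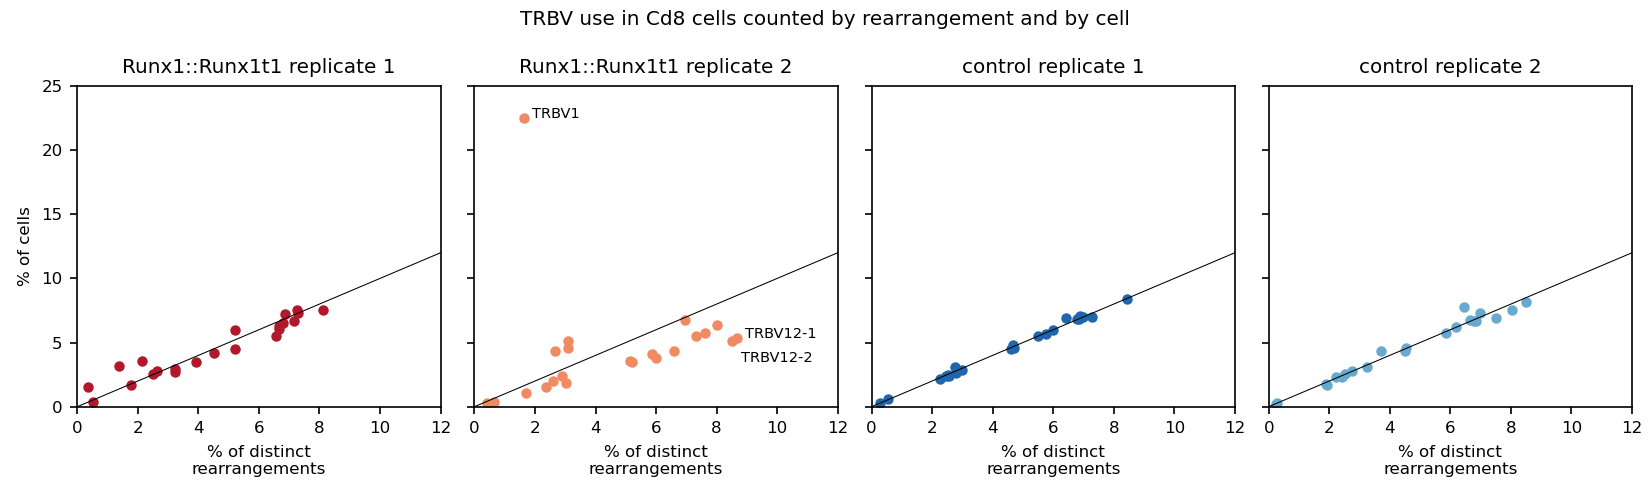
Share of each TRBV segment in Cd8+ T cells by cells (percent, vertical axis) against its share by distinct rearrangements (percent, horizontal axis), 1 panel per pool, with the line of equality. TRBV1 of Runx1::Runx1t1 replicate 2 lies at 22.5% of cells and 1.63% of rearrangements, with TRBV12-1 and TRBV12-2 of that pool below the line.

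The length of the CDR3, in amino acids from the conserved cysteine to the phenylalanine, ranged from 5 to 29. The means over distinct rearrangements were 14.01, 13.96, 13.98 and 13.97 in Cd8+ T cells. They were 13.89, 13.79, 14.08 and 13.86 in Cd4+ T cells and 14.08, 13.97, 14.18 and 14.11 in co-receptor-negative cells. Co-receptor-negative cells were longer than Cd4+ T cells in 4 of 4 pools, by 0.179 (SD 0.0608, n = 4). The two-sided exact permutation p of 0.13 is the smallest that 4 pairs can give (adjusted over 6 tests, 0.375). Cd8+ T cells were longer than Cd4+ T cells in 3 of 4 pools, by 0.0757 (SD 0.116, exact permutation p = 0.25, adjusted 0.5). The Runx1::Runx1t1 group differed from the control group by 0.00554 in Cd8+ T cells (exact permutation p = 1, where 2 pools against 2 cannot give less than 0.33).

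Length differed more between segments than between classes. By V segment the means ran from 13 for the rare TRBV30 and 13.1 for TRBV20 to 14.4 for TRBV1, 14.5 for TRBV5 and 14.6 for TRBV2. By J segment they ran from 13.4 for TRBJ1-1 and TRBJ2-7 to 14.7 for TRBJ2-2 and TRBJ2-3. The J segments bring different numbers of bases into the CDR3, which are the capitals on the lines below, up to and including the phenylalanine codon.
TRBJ2-7: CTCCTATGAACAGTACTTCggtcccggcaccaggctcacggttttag
TRBJ2-1: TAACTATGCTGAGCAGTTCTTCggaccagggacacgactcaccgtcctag
TRBJ2-3: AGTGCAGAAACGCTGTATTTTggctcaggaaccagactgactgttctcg
TRBJ1-6: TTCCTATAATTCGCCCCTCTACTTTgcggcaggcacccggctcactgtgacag

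TRBJ2-7, the most used, brings 19 bases and TRBJ1-6 brings 25. Over the 12 J segments the mean CDR3 length and the number of germline bases had a Pearson r of 0.697 and a Spearman rho of 0.765, given as a description, since the points share pools and libraries. TRBJ2-3 brings fewer bases than TRBJ1-6 and had longer CDR3s.

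**Figure D5:**
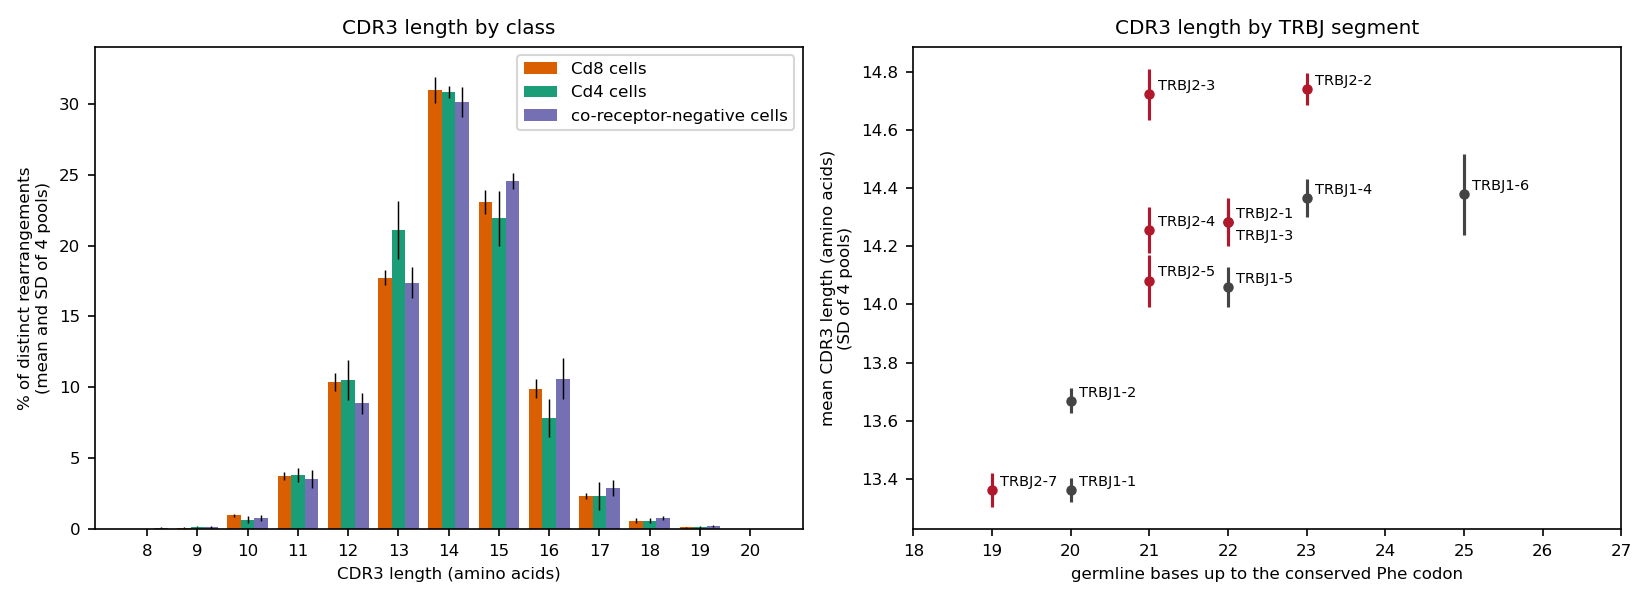
Left, share of distinct rearrangements (percent) by CDR3 length in amino acids for the 3 classes, bars being means and error bars SDs of 4 pools. Right, mean CDR3 length (amino acids, error bars SD of 4 pools) against the germline J bases up to the phenylalanine codon, for 6 TRBJ1 (grey) and 6 TRBJ2 (red) segments, from TRBJ2-7 with 19 bases to TRBJ1-6 with 25.

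The D and C calls followed the order of the locus, in which each J cluster lies upstream of its own C gene and TRBD2 lies downstream of the TRBJ1 cluster. The C gene belonged to the cluster of the J segment in 40011 of 40011 cells with a C call. TRBD2 was called in 0.199% of TRBJ1 cells and in 11.8% of TRBJ2 cells, and TRBD1 in 19.2% and 11.8%. No D was called in 80.6% and 76.5%.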

How the data were processed

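Bone marrow T cells were profiled in 4 pools. Reads were mapped to GRCm38 by Cell Ranger 6.1.2, and the authors deposited unnormalized UMI counts for called cells. The deposited contig tables give, per the file headers, V, D, J and C names, CDR sequences and counts of UMIs and reads for productive, full-length contigs. The annotation release is not given in the sources used here. The contig tables fill up to 1048575 lines with empty rows, which were dropped. The members and lists were chosen with earlier results of these data known.

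Barcodes with under 200 genes or over 15% mitochondrial UMIs were left out. Scrublet (scanpy 1.11.5, expected rate 0.05) marked 0 doublets by its own threshold in every library. The cells with the highest scores were therefore removed, with a cut set at 5%. This took out 703 to 816 cells per library, slightly above 5%. Per pool 12778 to 13738 cells remained, from 90958101 to 102883449 UMIs. The Cd8+ and Cd4+ classes needed at least 1 co-receptor UMI. In the alternative with at least 2 co-receptor UMIs, co-receptor-negative cells also needed at least 5000 UMIs in all.

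Distinct rearrangements per segment, pool and class were tested with edgeR 4.0.16 (R 4.3.3), quasi-likelihood, TRA and TRB segments in 1 fit with chain totals as offsets, segments with at least 20 in all, and Benjamini-Hochberg adjustment at 0.05 over both chains. The classes were blocked on pool, since they come from the same mice. Single values were tested by two-sided exact permutation over pools (scipy 1.17.1), adjusted over 6 tests. Named with values were the 6 TRBV and 3 TRBJ most used, up to 10 called per comparison, the segments known for invariant NKT and MAIT cells, the least used, and those with a rearrangement over 5% of a pool and class. Other called segments and TRBV17 were added after their values were seen. Wilson intervals (95%) cover counting error only. DESeq2 1.42.0, TMM, other filters and left-out pools were alternatives. Sequences came from the contigs and the GRCm38 genome and annotation. The fits were tested on simulated counts, which held no pool effects and no missing contigs.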

Additional observations from a re-analysis of the deposited data

Results flagged for a closer look

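The contig tables of the Runx1::Runx1t1 pools lacked contigs for many cells that expressed a Trbv gene, at shares above both control pools. Without a TRB contig were 18.5% of the Trbv1 cells of replicate 2 (295 of 1594, control pools 1.75% and 2.04%) and 26.3% of its Trbv3 cells (232 of 882, control pools 3.62% and 2.45%). In the same replicate the share was 23.4% for Trbv14 (82 of 351, control pools 0.403% and 1.59%), 19.96% for Trbv16 (103 of 516, control pools 2.85% and 1.34%) and 17.3% for Trbv15 (49 of 284, control pools 5.15% and 3.55%). In replicate 1 it was 36.7% for Trbv17 (113 of 308, control pools 8.75% and 2.12%). Most of these cells lacked a TRA contig too: 258 of 295 for Trbv1, 231 of 232 for Trbv3 and 110 of 113 for Trbv17.

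The largest rearrangement of the matching segment held 1204 cells for TRBV1, 115 for TRBV3, 162 for TRBV14, 57 for TRBV16 and 14 for TRBV15 in replicate 2, and 124 for TRBV17 in replicate 1. Large rearrangements also occurred without such a share: TRBV26 of replicate 2 had one of 183 cells, and 2.63% of its expressing cells lacked a contig. Over 21 segments, the size of the largest rearrangement was set against the share of expressing cells without a contig. Spearman rho was 0.440 and 0.547 in Runx1::Runx1t1 replicates 1 and 2, and 0.178 and 0.0748 in control replicates 1 and 2, given as a description. The cause was not tested. Beside this, Trbv3 cells made up 24.5% of Cd4+ T cells by expression in replicate 2, against 7.49% to 10.3% in the other pools.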

How the results depend on the processing

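The alternatives with the merged TRBV13-2 name, the control pools only and the crossed replicate block were chosen after seeing the data. The 21 members called between Cd8+ and Cd4+ T cells were 10 with every cell counted and 20 to 21 with 1 pool left out. The 10 between co-receptor-negative and Cd8+ T cells were 2 with every cell counted, 3 with DESeq2 and 4 without the block on pool. They were 5 in the control pools only, and 6 to 10 with 1 pool left out (6 without Runx1::Runx1t1 replicate 1). The 18 between co-receptor-negative and Cd4+ T cells were 3 with every cell counted, 12 in the control pools only and 11 to 15 with 1 pool left out (11 without control replicate 2). For the groups in Cd8+ T cells, 0 became 2 without cells with a pair of TRB chains, 1 with a replicate block (TRBV1), 2 with the crossed block and 0 to 1 with 1 pool left out. In Cd4+ T cells it became 0 to 1 with 1 pool left out (TRBV1 without Runx1::Runx1t1 replicate 1, log2 ratio -2.31). In co-receptor-negative cells it became 3 with every cell counted, 1 at 2 co-receptor UMIs, 4 without cells with a pair of TRB chains, 1 without TRAV11-TRAJ18 cells, 1 with no filter and 0 to 1 with 1 pool left out (without control replicate 1). The cause was not tested. Replicate numbers name pools only, and same-numbered pools had deviations correlated at -0.111, 0.116 and 0.191 in the 3 classes. The direction turned for the TRBJ2 share between the groups in Cd8+ T cells with every cell counted (from -0.761 to 2.83 points), for CDR3 length between them (-0.0196 to 0.0306 with 1 pool left out), and for the TRBJ2 share of Cd8+ minus Cd4+ T cells: -0.250 at 2 UMIs, -0.511 without cells with a pair of TRB chains, -0.438 without TRAV11-TRAJ18 cells, -0.0215 with the merged name and -0.319 to 0.466 with 1 pool left out. TRBV13-2 against Cd4+ T cells became 0.0836 in co-receptor-negative cells when merged. Of the other values for single segments, 423 kept direction and side of the threshold and 54 lost the call, 17 of them with every cell counted. Depth limits the rare segments, such as TRBV30 with 103 rearrangements.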

Other observations

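The beta chains that accompanied invariant alpha chains were mostly of a few V segments, although 21 TRBV names occurred with the first alpha chain below and 14 with the second. Of 1743 cells whose alpha chain joined TRAV11 to TRAJ18, the pair of invariant NKT cells, 793 (45.5%) used TRBV12-2+TRBV13-2, 329 (18.9%) used TRBV29, 12.2% used TRBV13-1 and 7.97% used TRBV1. Of 105 cells whose alpha chain joined TRAV1 to TRAJ33, the pair of MAIT cells, 28 (26.7%) used TRBV19, 27 (25.7%) TRBV13-3 and 21 TRBV12-2+TRBV13-2.

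Of 264 possible pairs of TRBV and TRBJ names, 263 were seen. Among the pairs seen, TRBV3 with TRBJ1-6 lay farthest below the product of their shares. It had 14 rearrangements where 64.6 were expected (ratio 0.217, pools 0.163 to 0.268). Farthest above was TRBV20 with TRBJ1-3, seen in 73 where 39.7 were expected (ratio 1.84, pools 1.52 to 2.05). Both were picked after their values were seen.

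Of 30676 distinct CDR3 nucleotide sequences, 288 (0.939%) occurred in more than 1 pool. Rearrangements whose CDR3 nucleotide sequence occurred in more than 1 pool, whatever their V name, had a mean length of 13.3 amino acids (n = 420), against 14.0 for the others. The 4 CDR3 sequences found in all 4 pools are shown, 3 of them under more than 1 V name, with capitals for the bases that match the germline J segment.
TRBV2 or TRBV5 with TRBJ1-3: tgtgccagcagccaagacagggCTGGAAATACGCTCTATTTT
TRBV10 or TRBV3 with TRBJ2-5: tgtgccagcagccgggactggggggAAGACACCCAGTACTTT
TRBV12-1 or TRBV12-2 with TRBJ2-7: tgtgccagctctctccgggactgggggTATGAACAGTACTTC
TRBV20 with TRBJ1-3: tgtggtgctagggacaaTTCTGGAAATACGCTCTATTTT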
